A study of Mus musculus with 4 samples.

Results

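The pulmonary neuroendocrine cell genes *Calca*, *Resp18*, *Uchl1*, *Syp*, *Chga*, *Chgb*, *Scg5* and *Insm1* were taken by symbol from the gene counts of whole embryonic lung. They are 8 of 45706 genes in the table, and all 8 had a mean of at least 5 counts per lung, as did 18763 genes in all. RNA was sequenced from the left lung lobes of 2 wild-type (Myh10+/+) mice and 2 mice homozygous for the chemically induced missense mutation Myh10 L458R (Myh10L458R/L458R), all C57BL/6 and at embryonic day 17. The mutation is germline, so every cell type of the mutant embryo carries it, and each lung lobe was sequenced whole, without sorting. The comparison asks how these genes stand in lungs that carry the mutant heavy chain of non-muscle myosin IIB.

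Pulmonary neuroendocrine cells are rare, innervated cells of the airway epithelium that lie singly or in clusters called neuroepithelial bodies. They sense the content of the airway and release peptides and amines from dense-core granules. Notch signaling keeps neighboring epithelial cells from the same fate. *Insm1* encodes a zinc-finger transcription factor of neuroendocrine differentiation. *Calca* encodes calcitonin and, by alternative splicing, calcitonin gene-related peptide (CGRP). *Chga* and *Chgb* encode the granins chromogranin A and B, *Scg5* a chaperone of the prohormone convertase PCSK2, and *Resp18* a protein of endocrine secretory granules. *Syp* encodes synaptophysin of the vesicle membrane and *Uchl1* a deubiquitinating enzyme. Most of these genes are also used by neurons, which reach the lung with the airway nerves.

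The lungs had between 19116971 and 32055306 reads counted on genes, so that 1 CPM (counts scaled to library size by the TMM method of edgeR) stood for 19.0 to 32.2 reads. *Myh10* itself had a log2 fold change, Myh10L458R/L458R over Myh10+/+, of 0.06 (adjusted p = 0.662, edgeR quasi-likelihood test), and since the mutation is missense its count does not check the genotype. *Xist* was high in Myh10+/+ lung 1 and Myh10L458R/L458R lung 2 (3916 and 4457 CPM) and low in the other lungs (1.84 and 4.10 CPM), where the Y-linked gene *Ddx3y* stood at 182 and 198 CPM, so each genotype held 1 female and 1 male lung. Of the 18763 genes tested, 308 (1.64%) passed an adjusted p-value of 0.05, with Benjamini-Hochberg adjustment over all of them. The replicates are separate lungs by their labels, and the sources used here name no litters.

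None of the 8 neuroendocrine genes passed this threshold, beside the 1.64% of all tested genes that did, and none had an unadjusted p-value under 0.05, which 9.02% of all tested genes had with a lower and 7.52% with a higher level in Myh10L458R/L458R lungs. The unadjusted counts given for other lists are to be read against these shares. The Wald test of DESeq2 also called 0 of the 8, with 0 under an unadjusted 0.05. The fold change was below 0 on the log2 scale for 7 genes and above 0 for 1, *Insm1*, with a median of -0.24 against 0.00 over all tested genes. Both mutant lungs lay below both Myh10+/+ lungs for 4 genes, *Uchl1*, *Chga*, *Chgb* and *Scg5*, and this was so for 24.3% of all tested genes. Both mutant lungs lay above both Myh10+/+ lungs for none of them, against 23.9% of all tested genes. The summed level of the 8 genes was 21.2 and 22.6 CPM in Myh10+/+ lungs and 18.5 and 20.04 CPM in Myh10L458R/L458R lungs, a sum made up mostly of *Uchl1* and *Calca*. A p-value above the threshold does not show that the genotypes are alike, and the intervals given for each gene show what size of change these counts still allow. In RNA of a whole lobe, fewer neuroendocrine cells and less RNA per cell cannot be told apart.

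**Figure D1:**
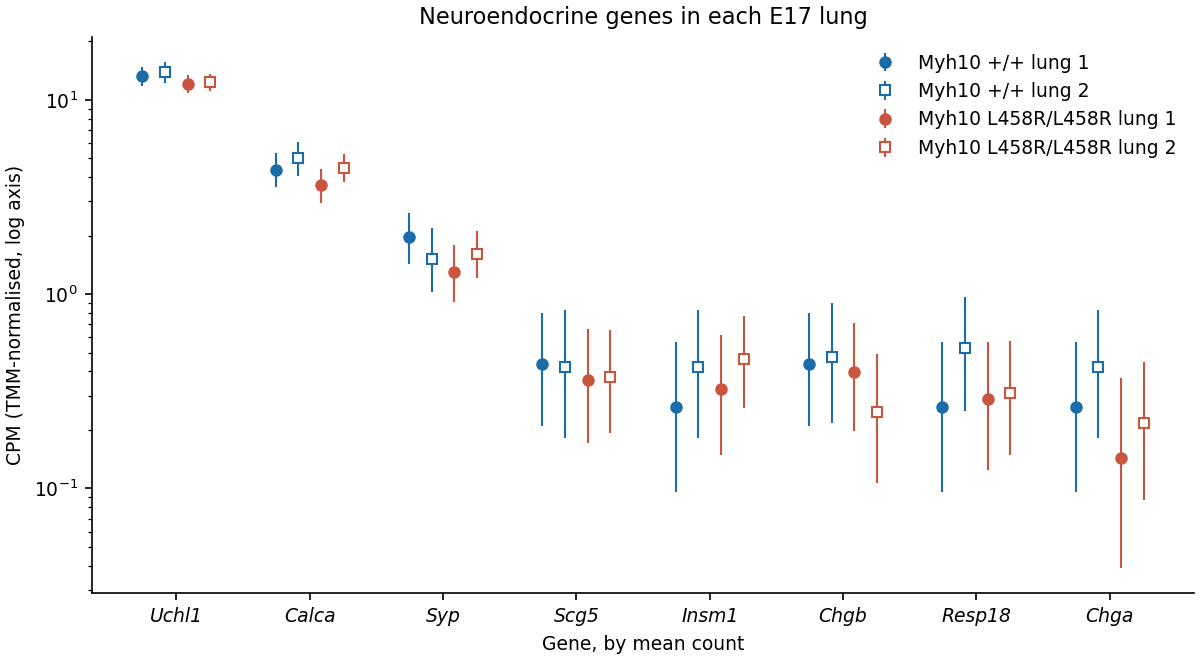
Level of each gene (CPM, log axis) in each of the 4 lungs, with genes ordered by mean count, blue for Myh10+/+ and red for Myh10L458R/L458R, and bars for the exact 95% Poisson interval of the count. *Uchl1* and *Calca* stand above the others, and the 5 genes on the right have 4 to 15 counts in a lung and intervals that overlap between all lungs.

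The transcription factor gene *Insm1* (ENSMUSG00000068154, GRCm38 chromosome 2, 146221921 to 146225020, plus strand) has a single exon. It had 6 and 8 counts in Myh10+/+ lungs (0.262 and 0.420 CPM) and 9 and 15 counts in Myh10L458R/L458R lungs (0.324 and 0.466 CPM). The lower lung of each genotype lay below the higher lung of the other, so the genotypes overlapped. The log2 fold change was 0.25 (s.e., standard error, 0.51, 95% interval -0.85 to 1.35, adjusted p = 0.851). It was -0.074 without Myh10+/+ lung 1 and -0.046 without Myh10L458R/L458R lung 2, and 0.60 and 0.47 without the other lung of each genotype.

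*Calca*, the source of CGRP, is a minus-strand gene of chromosome 7 (ENSMUSG00000030669, 114631478 to 114636357). It had 100 and 95 counts in Myh10+/+ lungs (4.37 and 4.99 CPM) and 101 and 144 counts in Myh10L458R/L458R lungs (3.63 and 4.47 CPM). Myh10L458R/L458R lung 2 lay between the Myh10+/+ lungs, and lung 1 lay below both. The log2 fold change was -0.20 (s.e. 0.18, adjusted p = 0.629), and its 95% interval as a fold ran from 0.668 to 1.14. It was -0.055 without Myh10L458R/L458R lung 1, -0.10 without Myh10+/+ lung 2, -0.29 without Myh10+/+ lung 1 and -0.36 without Myh10L458R/L458R lung 2. Counts per gene do not separate the calcitonin and CGRP transcripts. The paralog *Calcb*, which encodes the beta form of CGRP and shares no 75-base stretch, the read length, with *Calca*, had 6 and 9 counts in Myh10+/+ lungs and 4 and 7 in Myh10L458R/L458R lungs. These stood for 0.262 and 0.473 CPM against 0.144 and 0.218 CPM, which did not overlap, with a log2 fold change of -0.95 (95% interval -2.23 to 0.33, adjusted p = 0.439). *Grp*, which encodes the other best-known peptide of these cells, gastrin-releasing peptide, had 104 and 115 counts against 114 and 186. Its levels overlapped, at 4.54 and 6.04 CPM in Myh10+/+ lungs and 4.10 and 5.78 CPM in Myh10L458R/L458R lungs (log2 fold change -0.08, 95% interval -0.51 to 0.36, adjusted p = 0.890).

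Among the granule genes, *Chga* (ENSMUSG00000021194, chromosome 12, 102554969 to 102565028, plus strand) had the fewest counts, 6 and 8 in Myh10+/+ lungs and 4 and 7 in Myh10L458R/L458R lungs. The levels were 0.262 and 0.420 CPM in Myh10+/+ lungs against 0.144 and 0.218 CPM, without overlap. The log2 fold change of -0.85 (s.e. 0.58, adjusted p = 0.491) was the lowest of the 8, and its 95% interval, from -2.12 to 0.42, was the widest. Without Myh10+/+ lung 2 it was -0.51. *Chgb* (ENSMUSG00000027350, chromosome 2, 132781278 to 132795079, plus strand) had 10 and 9 counts against 11 and 8. That is 0.437 and 0.473 CPM in Myh10+/+ lungs and 0.395 and 0.249 CPM in Myh10L458R/L458R lungs, with a log2 fold change of -0.51 (95% interval -1.56 to 0.54, adjusted p = 0.644). It was -0.19 without Myh10L458R/L458R lung 2 and -0.85 without Myh10L458R/L458R lung 1. The ranges of the 2 granins thus did not overlap between genotypes, yet they rest on 4 to 11 reads a lung.

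*Scg5* (ENSMUSG00000023236, chromosome 2, 113776362 to 113829121, minus strand) had 10 and 8 counts in Myh10+/+ lungs and 10 and 12 in Myh10L458R/L458R lungs. After normalization these were 0.437 and 0.420 CPM against 0.359 and 0.373 CPM, and the log2 fold change was -0.22 (95% interval -1.22 to 0.77, adjusted p = 0.853). *Resp18* (ENSMUSG00000033061, chromosome 1, 75272199 to 75278415, minus strand) had 6 and 10 counts against 8 and 10, or 0.262 and 0.525 CPM in Myh10+/+ lungs and 0.288 and 0.311 CPM in Myh10L458R/L458R lungs. Both mutant lungs lay between the Myh10+/+ lungs. The log2 fold change of *Resp18* was -0.35 (95% interval -1.49 to 0.79, adjusted p = 0.791) and turned to 0.19 without Myh10+/+ lung 2, the lung with the most *Resp18*, and to -0.80 without Myh10+/+ lung 1.

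The vesicle gene *Syp* is X-linked (ENSMUSG00000031144, 7638471 to 7653256, plus strand). It had 45 and 29 counts in Myh10+/+ lungs (1.96 and 1.52 CPM) and 36 and 52 in Myh10L458R/L458R lungs (1.29 and 1.62 CPM). The genotypes overlapped, and within each genotype the lung with high *Xist* had the higher level. The log2 fold change was -0.26 (95% interval -0.86 to 0.33, adjusted p = 0.680). It was -0.058 without Myh10+/+ lung 1, -0.12 without Myh10L458R/L458R lung 1, -0.43 without Myh10+/+ lung 2 and -0.44 without Myh10L458R/L458R lung 2. *Uchl1*, the most abundant of the 8 (ENSMUSG00000029223, chromosome 5, 66676091 to 66687234, plus strand), had 302 and 264 counts against 337 and 397. Its levels of 13.2 and 13.9 CPM in Myh10+/+ lungs and 12.1 and 12.3 CPM in Myh10L458R/L458R lungs did not overlap, but the difference was small, with a log2 fold change of -0.14 (s.e. 0.09, adjusted p = 0.474). Its interval was the narrowest of the 8, with a fold between 0.787 and 1.04.

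**Figure D2:**
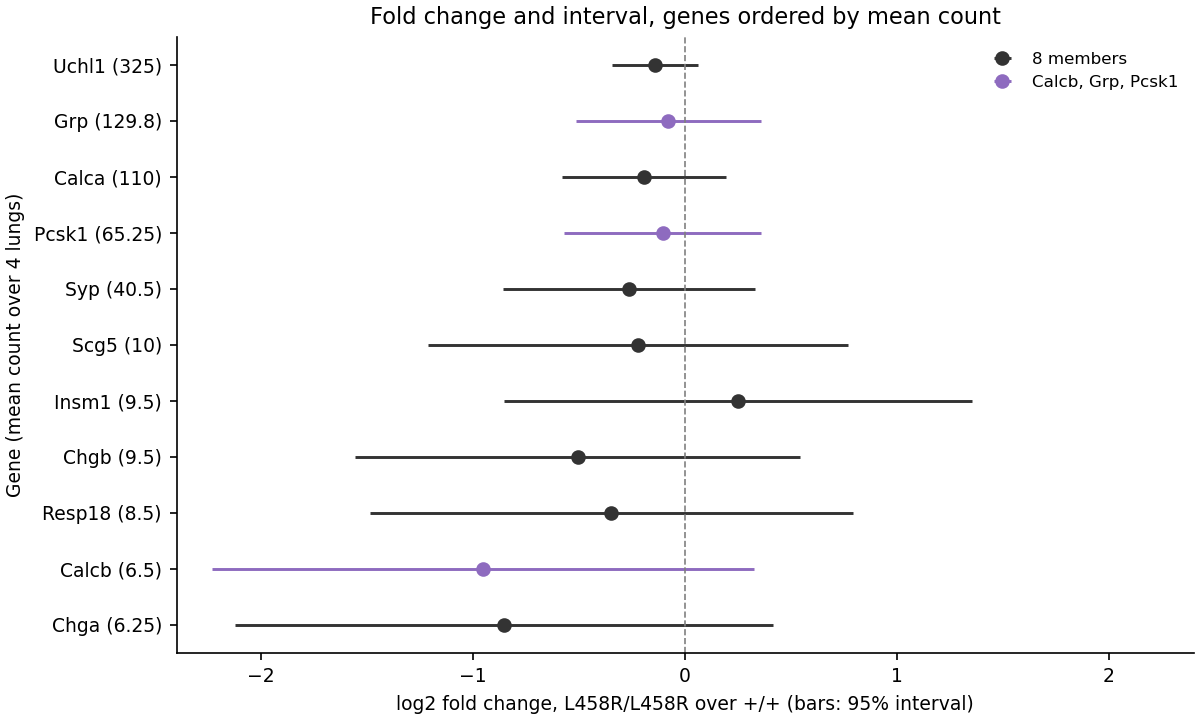
Log2 fold change, Myh10L458R/L458R over Myh10+/+ (x axis), with its 95% interval for the 8 genes (black) and for *Calcb*, *Grp* and *Pcsk1* (purple), ordered by mean count over the 4 lungs (in brackets). Every interval includes 0, and that of *Uchl1* is the narrowest and those of *Calcb* and *Chga* are the widest.

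Whether strand was used in counting is not given in the sources used here, and 3 of the 8 genes share exon sequence with a gene on the opposite strand. *Syp* shares 875 bp with *Gm14703*, which had 8 and 5 counts in Myh10+/+ lungs and 10 and 14 in Myh10L458R/L458R lungs, so the count of *Syp* is uncertain. *Uchl1* shares 295 bp with *Uchl1os* and *Resp18* shares 40 bp with *Gm28902*, and both partners had 0 counts in every lung. Reads assigned to several genes were left out. If strand was not used, reads in the shared stretches could thus be missing from *Uchl1* and *Resp18*, and the 0 counts cannot tell.

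Between the lungs of a genotype, the level of *Resp18* ranged from 0.262 to 0.525 CPM and that of *Chga* from 0.262 to 0.420 CPM, both in Myh10+/+ lungs. Of 16 exact two-sided binomial tests, 1 for each gene and genotype, the lowest p was 0.11, for *Calca* in Myh10L458R/L458R lungs, and 0.761 after Benjamini-Hochberg adjustment over the 16. For these genes a difference between replicate lungs beyond the counting error was not detectable at this depth, which for 5 of them was 4 to 15 counts a lung. The share of genes called and the smallest called change differed with depth. Between 5 and 20 mean counts, where *Insm1*, *Chga*, *Chgb*, *Scg5* and *Resp18* lie, 3 of 3101 genes were called and the smallest called change was 4.28-fold. Between 20 and 50 counts, where *Syp* lies, 2 of 1705 genes were called, with a smallest change of 2.37-fold. Between 100 and 500 counts, where *Calca* and *Uchl1* lie, 51 of 3671 genes (1.39%) were called, down to a 1.29-fold change. Smaller changes than these were not called at the depth of the granins, while for *Uchl1* a fall to under 0.787 of the Myh10+/+ level lies outside the interval.

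**Figure D3:**
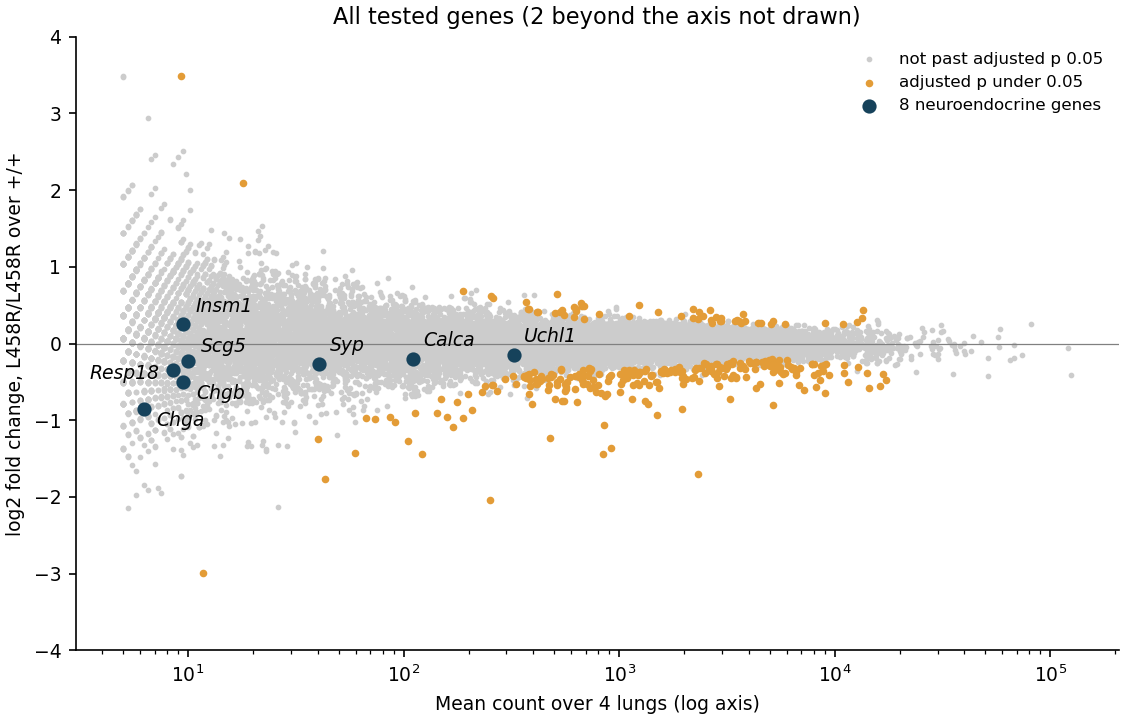
Mean count over the 4 lungs (x, log axis) against log2 fold change (y) for the tested genes, with called genes in orange, genes not called in grey and the 8 neuroendocrine genes in dark blue. The 5 genes with under 20 mean counts lie in a range where only 3 genes were called, each changed by at least 4.28-fold.

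Set per length of the annotated exons, as CPM per kb averaged over the 4 lungs, the order of the levels was *Uchl1* (7.89), *Calca* (2.59), *Resp18* (0.336), *Syp* (0.307), *Scg5* (0.253), *Chgb* (0.142), *Insm1* (0.119) and *Chga* (0.0946). The lungs did not overlap between *Uchl1* and *Calca*, between *Calca* and *Resp18*, or between *Scg5* and *Chgb*. They overlapped between *Resp18* and *Syp*, *Syp* and *Scg5*, *Chgb* and *Insm1*, and *Insm1* and *Chga*, so these neighbors have no settled order. The order of *Scg5* and *Chgb* is not settled either. Their mean counts were near equal, at 10 and 9.5, and their order per kb comes from annotated exon lengths of 1569 and 2740 bp.

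The promoter sequences are shown for the genes of CGRP, chromogranin A and RESP18, as the peptide and 2 granule proteins of these cells. RefSeq windows on GRCm38, reaching from 250 bases before the transcription start to 50 after it, matched 7 of the 8 genes by symbol. The 250 bases before the start are printed 5′ to 3′ on the strand of the gene, at chr7:114636358-114636607 (minus strand) for *Calca*, chr12:102554691-102554940 (plus strand) for *Chga* and chr1:75278416-75278665 (minus strand) for *Resp18*. Capitals mark the letters CAGCTG, an E-box, the kind of site that basic helix-loop-helix factors bind, and TGACGTAA, a variant of the cyclic AMP response element.
Calca: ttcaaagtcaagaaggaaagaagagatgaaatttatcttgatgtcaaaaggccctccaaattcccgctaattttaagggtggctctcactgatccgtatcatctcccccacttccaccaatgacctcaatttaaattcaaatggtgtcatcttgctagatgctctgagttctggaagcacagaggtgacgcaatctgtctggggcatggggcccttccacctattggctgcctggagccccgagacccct
Chga: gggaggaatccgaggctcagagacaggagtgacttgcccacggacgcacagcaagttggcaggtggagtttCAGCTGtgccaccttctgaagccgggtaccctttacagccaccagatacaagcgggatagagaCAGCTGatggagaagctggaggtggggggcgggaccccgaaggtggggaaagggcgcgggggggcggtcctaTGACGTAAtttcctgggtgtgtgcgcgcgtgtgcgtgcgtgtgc
Resp18: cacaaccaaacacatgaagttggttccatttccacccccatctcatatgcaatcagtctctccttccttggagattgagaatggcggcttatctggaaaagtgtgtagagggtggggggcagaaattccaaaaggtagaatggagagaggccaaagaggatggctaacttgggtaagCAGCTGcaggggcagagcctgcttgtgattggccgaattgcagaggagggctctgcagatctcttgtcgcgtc

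Searched on both strands, CAGCTG was in 4 of the 7 windows, against 16.3% of all 32851 windows of the table. *Chga* held it at -179 to -174 and at -116 to -111 from the start, *Resp18* at -73 to -68, and *Calca* and *Chgb* after the start, at 28 to 33 and 31 to 36. The cyclic AMP response element TGACGTCA was in 1 window, that of *Chgb* at -72 to -65, against 1.79% of all windows, and its variant TGACGTAA in 1, that of *Chga* at -44 to -37, against 0.499%. TTCAGCACC, the left part of the longer element bound by the neuronal repressor REST, was in 0 of the 7 and in 0.371% of all windows. The 3 motifs do not overlap each other in these windows. The motifs were chosen with the expression values known, and a match describes letters, not a bound site.

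**Figure D4:**
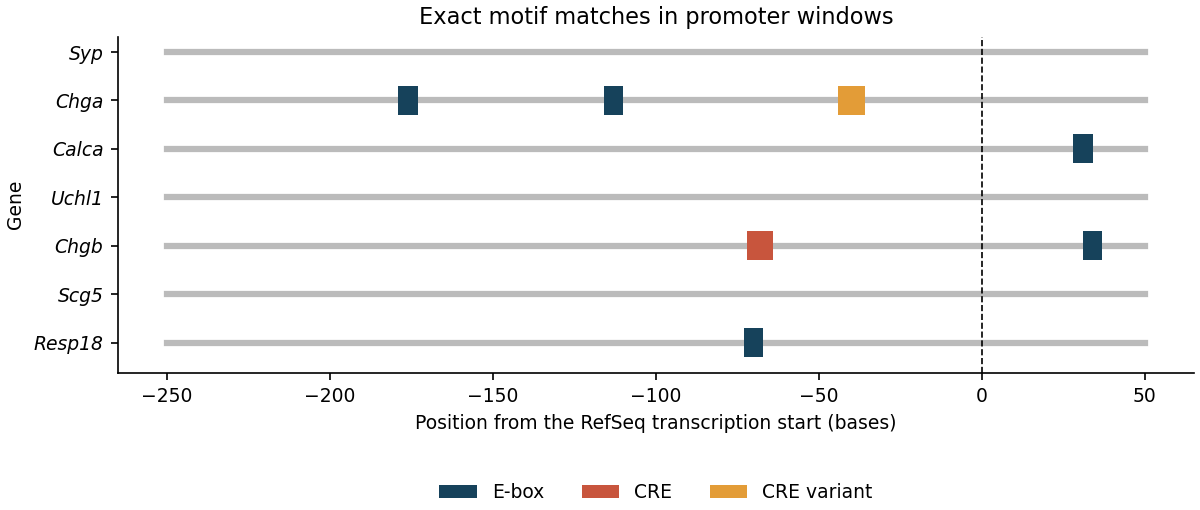
Exact matches to CAGCTG (E-box), TGACGTCA (CRE) and TGACGTAA (CRE variant) by position from the RefSeq transcription start (x axis, bases) in the promoter windows of 7 genes, drawn as grey lines. *Chga* has 3 matches and *Scg5*, *Uchl1* and *Syp* have none.

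A wider set of 89 genes, of neuroendocrine cells or of the control of their fate, was followed in 5 lists. None of the lists holds the 8 genes, and 67 of the 89 genes passed the minimum. Of these, 2 were called, both lower in Myh10L458R/L458R lungs, beside 1.64% of all tested genes. The median log2 fold change of the 67 was -0.02, with 38 lower and 29 higher, against 0.00 over all tested genes. Of the 67, 11 were lower and 2 higher at an unadjusted p under 0.05, beside 9.02% and 7.52% of all tested genes. The lists also hold Notch receptor and effector genes, the repressor gene *Rest*, and genes of many other cells. *Epcam*, for example, is in the pan-epithelial list too and had 144 and 152 CPM in Myh10+/+ lungs. The median is thus not one of neuroendocrine cells alone. *Qpct*, which encodes the enzyme that closes the amino-terminal pyroglutamate of peptide hormones, had 23.1 and 26.7 CPM in Myh10+/+ lungs and 16.6 and 19.5 CPM in Myh10L458R/L458R lungs. Its log2 fold change was -0.46 (s.e. 0.10, adjusted p = 0.0368). That call was lost with the Wald test of DESeq2 (adjusted p = 0.0511), without Myh10+/+ lung 2 (adjusted p = 0.215) and without Myh10L458R/L458R lung 1 (adjusted p = 0.188). *Cd9*, a tetraspanin of the surface of these and many other cells, had 225 and 213 CPM against 170 and 188 CPM, a log2 fold change of -0.29 (s.e. 0.06, adjusted p = 0.0277), and was not called without Myh10+/+ lung 1 (adjusted p = 0.114). The exons of *Cd9* share 218 bp with *Gm26728* on the opposite strand.

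Of the 16 transcription factors and Notch fate genes, 11 were tested and 0 were called by edgeR with genotype as the single term. The median log2 fold change was -0.02, and 2 genes were lower and 0 higher at an unadjusted p under 0.05. The Notch ligand gene *Dll1* had 9.78 and 9.66 CPM in Myh10+/+ lungs and 7.41 and 7.61 CPM in Myh10L458R/L458R lungs (log2 fold change -0.37, adjusted p = 0.128), and its exons share 867 bp with *A930024N18Rik* on the opposite strand. The Notch effector gene *Hes1*, which encodes a transcriptional repressor, had 61.7 and 79.5 CPM against 58.7 and 59.9 CPM (log2 fold change -0.25, adjusted p = 0.233). It ranged from -0.059 without Myh10+/+ lung 2 (adjusted p = 0.905) to -0.42 without Myh10+/+ lung 1 (adjusted p = 0.0224). *Hey1* and the receptor gene *Notch2* had log2 fold changes of -0.16 and 0.08, with overlapping lungs. *Notch2* ranged from -0.015 without Myh10L458R/L458R lung 1 (adjusted p = 0.959) to 0.16 without lung 2 (adjusted p = 0.0449).

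Of 19 genes of peptide hormones and amine synthesis, 10 were tested and 0 called (1 lower at an unadjusted p under 0.05), with 7 lower, 3 higher and a median of -0.13. The galanin gene *Gal* had 0.698 and 0.998 CPM in Myh10+/+ lungs and 0.503 and 0.590 CPM in Myh10L458R/L458R lungs (log2 fold change -0.60, adjusted p = 0.459). *Ddc*, whose enzyme makes serotonin and dopamine from their precursors, had a log2 fold change of -0.19 (adjusted p = 0.280) and the vesicular monoamine transporter gene *Slc18a2* one of 0.26 (adjusted p = 0.364). Genes below the minimum here included *Tph1*, of the first step of serotonin synthesis, and the peptide genes *Sst*, *Nmu* and *Npy*.

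Of 16 genes of the granule matrix and prohormone processing, 11 were tested, 8 of them lower and 3 higher, with a median of -0.11. *Qpct* was the single call, and 4 genes were lower and 0 higher at an unadjusted p under 0.05. Both mutant lungs lay below both Myh10+/+ lungs for 6 of the 11, beside 24.3% of all tested genes, and above them for 0. The prohormone convertase gene *Pcsk1* had 57 and 55 counts against 72 and 77, or 2.49 and 2.89 CPM against 2.59 and 2.39 CPM (log2 fold change -0.11, 95% interval -0.57 to 0.36, adjusted p = 0.853). *Cpe*, which encodes the carboxypeptidase that trims cut hormones, had 37.9 and 38.3 CPM in Myh10+/+ lungs and 33.0 and 33.7 CPM in Myh10L458R/L458R lungs (log2 fold change -0.19, adjusted p = 0.215). *Cyb561*, whose product carries electrons across the granule membrane, and *Ica1* had log2 fold changes of -0.23 and -0.18. *Pcsk2*, whose enzyme the SCG5 protein escorts, was below the minimum.

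All 22 genes of vesicle release were tested and 0 were called (2 lower and 2 higher at an unadjusted p under 0.05), with a median of 0.02. The fusion protein gene *Snap25* had 5 and 6 counts in Myh10+/+ lungs and 16 and 22 in Myh10L458R/L458R lungs, without overlap (log2 fold change 1.25, 95% interval 0.17 to 2.34, adjusted p = 0.202). *Syt13*, a synaptotagmin gene, also lay higher in both mutant lungs, at 3.89 and 4.25 CPM against 5.64 and 5.59 CPM (log2 fold change 0.47, adjusted p = 0.161). The log2 fold change was -1.22 for *Cplx1* (adjusted p = 0.298), a regulator of vesicle fusion with 4 to 9 counts a lung. Of 16 surface and sensory genes, 13 were tested, with *Cd9* as the single call and a median of 0.02. In this list 2 genes were lower and 0 higher at an unadjusted p under 0.05. Here *Cd24a* and the potassium channel gene *Kcnk3* had log2 fold changes of -0.12 and -0.14, and the sodium channel gene *Scn9a* one of 0.86 (adjusted p = 0.329).

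On the receiving side, 11 of 12 receptor genes for neuroendocrine peptides were tested and 0 called, with 5 lower and 0 higher at an unadjusted p under 0.05 and a median of -0.16. The product of *Calcrl*, which is abundant in lung endothelium, forms the CGRP receptor with the RAMP encoded by *Ramp1* and adrenomedullin receptors with those of *Ramp2* and *Ramp3*. *Calcrl* had 324 and 304 CPM in Myh10+/+ lungs and 272 and 290 CPM in Myh10L458R/L458R lungs, a log2 fold change of -0.16 (95% interval -0.27 to -0.04, adjusted p = 0.161), and without each lung in turn its adjusted p ran from 0.0234 (without Myh10L458R/L458R lung 2) to 0.605. *Ramp1*, named here after its values were seen, had 7.95 and 7.51 CPM in Myh10+/+ lungs and 5.72 and 6.56 CPM in Myh10L458R/L458R lungs, a log2 fold change of -0.33 (95% interval -0.62 to -0.04, adjusted p = 0.242). *Ramp2* and *Ramp3* had log2 fold changes of -0.18 and -1.57, the latter from 3 to 11 counts. The somatostatin receptor gene *Sstr2* had 3.32 and 2.57 CPM against 1.11 and 2.08 CPM (log2 fold change -0.87, adjusted p = 0.158), and ranged from -0.51 without Myh10L458R/L458R lung 1 (adjusted p = 0.472) to -1.41 without lung 2 (adjusted p = 0.00959).

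**Figure D5:**
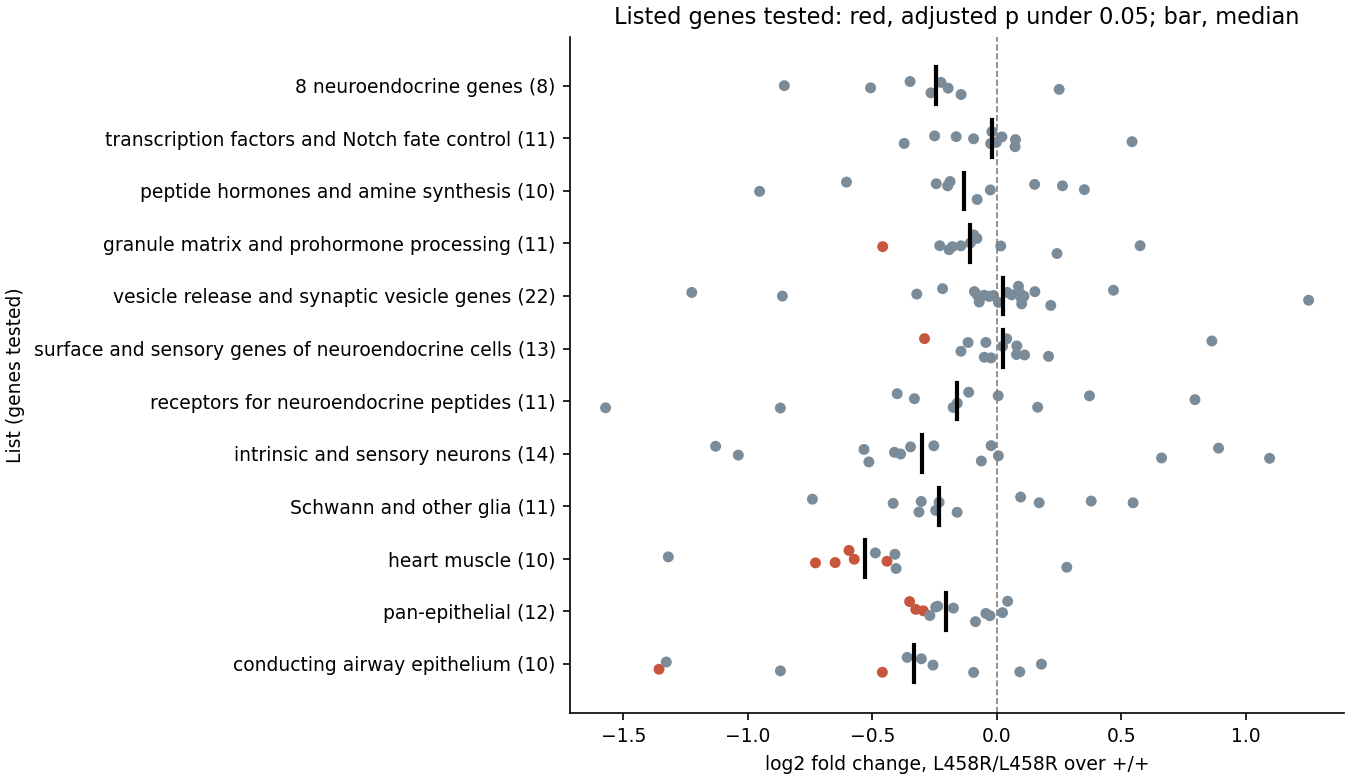
Log2 fold change, Myh10L458R/L458R over Myh10+/+ (x axis), of each tested gene of the 8 neuroendocrine genes, the further neuroendocrine lists, and the lists of other cell types (y axis, number tested in brackets). Points in red had an adjusted p under 0.05, black bars are medians, and red points stand most often in the lists of heart muscle (5), pan-epithelial (3) and conducting airway genes (2).

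Genes of the tissues that surround neuroendocrine cells were counted in the same lungs. Of 10 tested conducting airway genes, 8 were lower and 2 were called, both lower, beside 1.64% of all tested genes called. The median log2 fold change was -0.33, and 6 genes were lower and 0 higher at an unadjusted p under 0.05. The sum of the list was 790 and 991 CPM in Myh10+/+ lungs and 646 and 731 CPM in Myh10L458R/L458R lungs. Most of this sum was *Scgb3a2*, named after its values were seen. It had 489 and 658 CPM in Myh10+/+ lungs and 408 and 485 CPM in Myh10L458R/L458R lungs. Its log2 fold change was -0.36, and it was not called by edgeR with genotype as the single term (adjusted p = 0.147). An edgeR fit that added a block for same-numbered lungs did call it (adjusted p = 0.0122). With the pairing crossed it was not called (adjusted p = 0.0904). The club cell genes *Scgb1a1* (53.0 and 58.6 CPM against 15.1 and 28.2 CPM) and *Cyp2f2* (92.8 and 97.2 CPM against 66.9 and 71.2 CPM) fell by 1.36 and 0.46 on the log2 scale (adjusted p = 0.00897 each). With the Wald test of DESeq2 *Scgb1a1* was not called (adjusted p = 0.0916). The ciliated cell gene *Foxj1* had a log2 fold change of -0.26 (adjusted p = 0.121), and the basal cell gene *Krt5* was below the minimum. Of 12 pan-epithelial genes, 10 were lower and 3 (*Cdh1*, *Krt8* and *Krt19*) were called lower, beside the same 1.64%. The median was -0.21, and 7 genes were lower and 0 higher at an unadjusted p under 0.05. The sums were 1870 and 1887 CPM against 1656 and 1694 CPM. The other pan-epithelial genes were not called, among them *Epcam* and *Nkx2-1* (log2 fold changes -0.04 and 0.02, both named after their values were seen). The part of these epithelial lists in the values of the 8 genes was not tested.

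Of 14 tested genes of intrinsic and sensory neurons, 10 were lower and 0 were called (3 lower and 1 higher at an unadjusted p under 0.05), with a median of -0.30 and sums of 34.4 and 32.9 CPM in Myh10+/+ lungs and 26.9 and 26.4 CPM in Myh10L458R/L458R lungs. The growth cone gene *Gap43* had 8.73 and 7.83 CPM against 5.72 and 5.75 CPM (log2 fold change -0.53, adjusted p = 0.0678) and *Stmn2* a log2 fold change of -0.39. *Isl1*, of sensory and autonomic neurons, stood higher in both mutant lungs, with 6 and 7 counts against 22 and 18 (log2 fold change 1.10, adjusted p = 0.256). *Elavl4* and *Nos1*, named after their values were seen, also lay higher in both mutant lungs (log2 fold changes 0.89 and 0.66, adjusted p = 0.377 and 0.401). *Phox2a* and *Chat*, which mark autonomic and cholinergic neurons, were below the minimum. Of 11 tested glial genes, 7 were lower and 0 called (3 lower and 0 higher at an unadjusted p under 0.05), with sums of 177 and 174 CPM against 162 and 153 CPM. Of 10 tested heart muscle genes, 9 were lower and 5 (*Myh6*, *Myl7*, *Myl4*, *Tnnt2* and *Ryr2*) called lower, beside 1.64% of all tested genes called. At an unadjusted p under 0.05, 9 were lower and 0 higher. The sums were 261 and 327 CPM against 210 and 191 CPM. Neurons also express *Uchl1*, *Syp* and the granins, and the part of the neuronal genes in their values was not tested.

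By likeness over the 4 lungs, the genes closest to the mean profile of the 8 genes (log2 CPM centered per gene: 0.00 and 0.28 in Myh10+/+ lungs, -0.22 and -0.07 in Myh10L458R/L458R lungs) were *Psmd3*, *Dgkz*, *Acsf3*, *Maff* and *Serpina9*, with Pearson's r of 0.9996 or more. With 4 points such values are common, and 151 of 18755 other tested genes reached 0.99. The 8 genes themselves ranged from 0.298 for *Insm1* and 0.301 for *Syp* to 0.951 for *Uchl1* and 0.992 for *Chga* against the profile they make up.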

How the data were processed

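RNA of the left lung lobe of 2 Myh10+/+ and 2 Myh10L458R/L458R embryos (E17) was measured by stranded, single-end RNA-seq. The values the authors deposited are read counts for each Ensembl gene without normalization. Per the labels and the study's methods they were aligned to GRCm38 with STAR 2.4.0a and counted on exons with featureCounts 1.5.1, leaving out reads assigned to several genes or regions. Whether counting used strand is not given in the sources used here.

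From these counts, genes averaging 5 counts or more per lung were tested with edgeR 4.0.16 in R 4.3.3 (TMM, glmQLFit with robust = FALSE, glmQLFTest, genotype as the single term), with Benjamini-Hochberg adjustment over all tested genes. Standard errors and 95% intervals come from that fit. Levels are TMM-normalized CPM, and level intervals are exact Poisson intervals covering counting error only. Each lung counted as a replicate. Replicate chi-square per degree of freedom was 7.47 in Myh10+/+ and 12.6 in Myh10L458R/L458R lungs. Sex-linked genes were included, among them *Xist*, with 89703 and 35 counts in Myh10+/+ and 114 and 143443 in Myh10L458R/L458R lungs. These chi-square values thus cannot separate the difference in sex from other spread between lungs. The p-values rest on the spread between these lungs, which edgeR draws toward the spread of other tested genes. Within each genotype that spread also holds the difference in sex. The test was checked on simulated data.

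The 8 genes and all lists were chosen with earlier results of these data known. Named are the 8 genes, *Calcb*, *Grp* and *Pcsk1*, each list's called genes and, up to 4 per list, those with the next lowest p, the 5 genes most alike in profile, and *Myh10*, *Xist* and *Ddx3y* as checks. Some genes these rules select are not reported here. Untested genes named as examples, *Pcsk2* among them, were chosen after their values were seen. Alternatives were DESeq2 size factors, library totals, no filter, filterByExpr, the Wald test of DESeq2 1.42.0, leaving out chromosomes X, Y and MT, a replicate block and leaving out each lung. Gene positions are from GENCODE, and promoter windows from RefSeq on GRCm38.p6.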

Additional observations from a re-analysis of the deposited data

How the results depend on the processing

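None of the 8 neuroendocrine genes was called in any of the 12 alternative fits, each of which tested all 8 apart from filterByExpr (6) and the fit without chromosomes X, Y and MT (7). Over all tested genes, 308 were called, against 278 with DESeq2 size factors, 346 with library totals, 287 with filterByExpr, 275 with the Wald test of DESeq2, 379 without chromosomes X, Y and MT and 1162 with no filter on low counts, where 28549 genes were tested. Leaving out each lung in turn gave 206 to 1643 calls, the latter without Myh10L458R/L458R lung 2; the lone lung of a genotype is then assumed to vary like the other pair. Of the 67 further neuroendocrine genes, 2 were called, against 1 with the Wald test of DESeq2 and 1 to 3 without each lung, the 1 being without Myh10L458R/L458R lung 1. Each fit without a lung also left a genotype with lungs of a single sex. The cause of these shifts was not tested.

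Without single lungs the log2 fold change ranged from -0.80 to 0.19 for *Resp18*, -0.074 to 0.60 for *Insm1*, -0.35 to 0.14 for *Grp* and -0.015 to 0.16 for *Notch2*, and none of these reversals was called. *Grp* reversed without Myh10+/+ lung 2 (0.13) and Myh10L458R/L458R lung 1 (0.14). *Notch2* reversed without Myh10L458R/L458R lung 1. With no filter, *Hes1*, *Sstr2*, *Calcrl*, *Gap43*, *Stmn2*, *Krt18*, *Foxj1* and *Scgb3a1* also passed, all with the same sign (adjusted p from 0.00394 to 0.0447). Calls of *Tnnt2* and *Myl4* were lost without Myh10+/+ lung 2 (adjusted p = 0.189 and 0.246) and that of *Cdh1* without Myh10+/+ lung 1 (0.107).

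The labels number the lungs 1 and 2 in each genotype but tie the numbers to no litter or batch. Deviations of same-numbered lungs had a correlation of -0.197 over 18763 genes and -0.027 without chromosomes X, Y and MT. The crossed pairing joined Myh10+/+ lung 1 to Myh10L458R/L458R lung 2 and Myh10+/+ lung 2 to Myh10L458R/L458R lung 1. By *Xist* it paired lungs of the same sex, while same-numbered lungs were of opposite sex. With the replicate block of same-numbered lungs 710 genes were called, 0 of the 8 and 2 of the 67. With the crossed pairing, chosen after the data were seen, these counts were 415, 0 and 2. Depth limits *Insm1*, *Chga*, *Chgb*, *Scg5* and *Resp18*, with 4 to 15 counts a lung, more than *Uchl1* and *Calca*.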
